A study of Mus musculus with 4 samples.

Results

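This account describes 10 hypoxia-inducible genes in K7M2, a line of mouse osteosarcoma cells with high metastatic capacity: Egln3, Egln1, Car9, Vegfa, Bnip3, Ndrg1, Ankrd37, Bhlhe40, P4ha1 and Kdm3a. They were named as a list, with earlier results of these data known. Every probe set whose platform annotation gives one of these symbols was taken. All 10 genes were found, on 18 probe sets, among 18193 genes on 34945 probe sets with 1 gene symbol. The series holds 4 one-colour Affymetrix arrays of total RNA, 1 from K7M2 cells over-expressing GFP and 3 (replicates 1 to 3) from K7M2 cells over-expressing ezrinT567A-GFP, all grown in medium with serum. T567A names an ezrin whose C-terminal regulatory threonine is an alanine, a residue that takes no phosphate, and ezrin itself links membrane proteins to the actin cortex. The labels give neither the promoter of the constructs nor whether the cells were clones or pools, and they name no low-oxygen treatment. They do not say that the 3 replicates were separate cultures, so p-values here cover only the spread of these arrays, which may be technical. Cellular metabolism is among the subjects named by the series title, and the question here was whether oxygen-regulated genes differed between both kinds of cells.

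Cells sense oxygen through prolyl hydroxylases, which mark the alpha subunits of the hypoxia-inducible factors (HIF) for recognition by the von Hippel-Lindau protein and for degradation. When oxygen is scarce this marking slows, HIF binds DNA with its partner Arnt, and it switches on genes for acid handling, blood vessel growth, mitochondrial turnover, matrix assembly and chromatin demethylation, among them some of the hydroxylases themselves. Hypoxic regions are common in solid tumours, osteosarcoma included, and the genes below are widely read as markers of this response.

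HIF binds DNA at a short core, ACGTG or GCGTG, and the promoters of 4 of the genes are shown. Of these, 3 (Egln3, Car9 and P4ha1) were lower in all 3 ezrinT567A-GFP arrays and the other (Egln1) is the hydroxylase that was not. Kdm3a and Bhlhe40 were also lower in all 3 arrays. Kdm3a, with several listed starts of which not all held a core, is not shown, and Bhlhe40 had no promoter to read. Each sequence runs from 250 bases before to 50 bases after a start site of the RefSeq annotation of GRCm38.p6, is written 5′ to 3′ on the strand of the gene, and has every core, on either strand, in capitals. The Egln3 promoter lies at chr12:54203825-54204124, minus strand, that of Car9 at chr4:43506776-43507075, plus strand, that of P4ha1 at chr10:59323046-59323345, plus strand and that of Egln1 at chr8:124949205-124949504, minus strand.
Egln3: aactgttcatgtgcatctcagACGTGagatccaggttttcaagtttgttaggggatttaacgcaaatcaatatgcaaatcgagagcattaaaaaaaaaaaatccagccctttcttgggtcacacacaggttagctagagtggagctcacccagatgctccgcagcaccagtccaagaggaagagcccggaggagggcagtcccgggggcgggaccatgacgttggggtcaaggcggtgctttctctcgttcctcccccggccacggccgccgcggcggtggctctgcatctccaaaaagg
Car9: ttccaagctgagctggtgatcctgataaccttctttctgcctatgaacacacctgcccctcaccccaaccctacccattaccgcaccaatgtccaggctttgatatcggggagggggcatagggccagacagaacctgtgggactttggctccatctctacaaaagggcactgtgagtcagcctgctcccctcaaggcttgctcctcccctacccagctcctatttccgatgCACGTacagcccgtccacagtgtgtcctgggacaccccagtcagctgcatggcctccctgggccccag
P4ha1: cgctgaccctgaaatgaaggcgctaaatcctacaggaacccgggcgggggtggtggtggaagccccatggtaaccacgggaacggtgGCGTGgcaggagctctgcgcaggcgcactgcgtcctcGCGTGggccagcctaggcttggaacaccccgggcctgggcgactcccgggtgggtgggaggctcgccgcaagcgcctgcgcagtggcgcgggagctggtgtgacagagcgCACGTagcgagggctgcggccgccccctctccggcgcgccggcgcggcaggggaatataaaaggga
Egln1: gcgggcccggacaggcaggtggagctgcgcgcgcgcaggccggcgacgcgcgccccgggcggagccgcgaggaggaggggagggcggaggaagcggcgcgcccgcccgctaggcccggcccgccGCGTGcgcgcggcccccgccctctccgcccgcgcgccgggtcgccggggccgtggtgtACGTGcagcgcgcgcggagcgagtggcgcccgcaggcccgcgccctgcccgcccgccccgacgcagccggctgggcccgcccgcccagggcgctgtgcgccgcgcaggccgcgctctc
Egln3 held 1 core, 229 bases before the start, and Car9 held 1 core that begins 18 bases before it. P4ha1 held 3 cores and Egln1 held 2. The table had promoters for 8 of the 10 genes, and all 8 had a core at 1 or more of their listed starts, where 59.3% of the 14452 tested genes in the table did. By single promoters the core was in 8 of 11 member promoters and in 43.8% of all 32851, which also count genes not tested here. The member promoters without a core were further listed starts of Kdm3a and Vegfa, so these genes count among the 8 through only some of their starts. The number of cores did not order the genes by their difference. Bnip3 and Ankrd37 had the most cores in this window, 5 and 4, and had arrays on both sides of GFP. These counts take the palindromes CACGTG of Bnip3 and CACGCGTG of Ankrd37 on both strands. Ankrd37 was dim on every array, and Bnip3 was below GFP in replicate 1 alone. Such a match is a description of letters in this window, not a site of binding.

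The largest differences lay in the oxygen-regulated hydroxylase Egln3 and the carbonic anhydrase Car9. Both were far lower in every ezrinT567A-GFP array than in GFP, though these arrays lay far apart. Another 3 genes, Bhlhe40, P4ha1 and Kdm3a, were modestly lower in all 3 arrays, Ndrg1 was higher in all 3, and Egln1, Vegfa, Bnip3 and Ankrd37 had arrays on both sides of GFP. So 5 of 10 genes were below GFP in all 3 arrays, where 25.6% of all genes were, and 1 of 10 was above in all 3, where 32.5% were. Because the genes were chosen with earlier results of these data known, such counts cannot be told apart from that choice. The members' median difference was -0.26 on the log2 scale, against 0.03 over all genes. No member passed the test by limma over all genes: 0 of 10 members and 0 of 18193 genes (0%) had an adjusted p under 0.05, and the members' adjusted p lay between 0.277 and 0.992. An unadjusted p under 0.05 was reached by 3 members, all lower (Egln3, Car9 and Bhlhe40), where 6.50% of all genes were lower and 14.0% passed in either direction. The smallest p that an exact permutation of the 4 arrays allows is 0.25, and limma's fit takes the lone GFP array to be as variable as the rest.

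**Figure D1:**
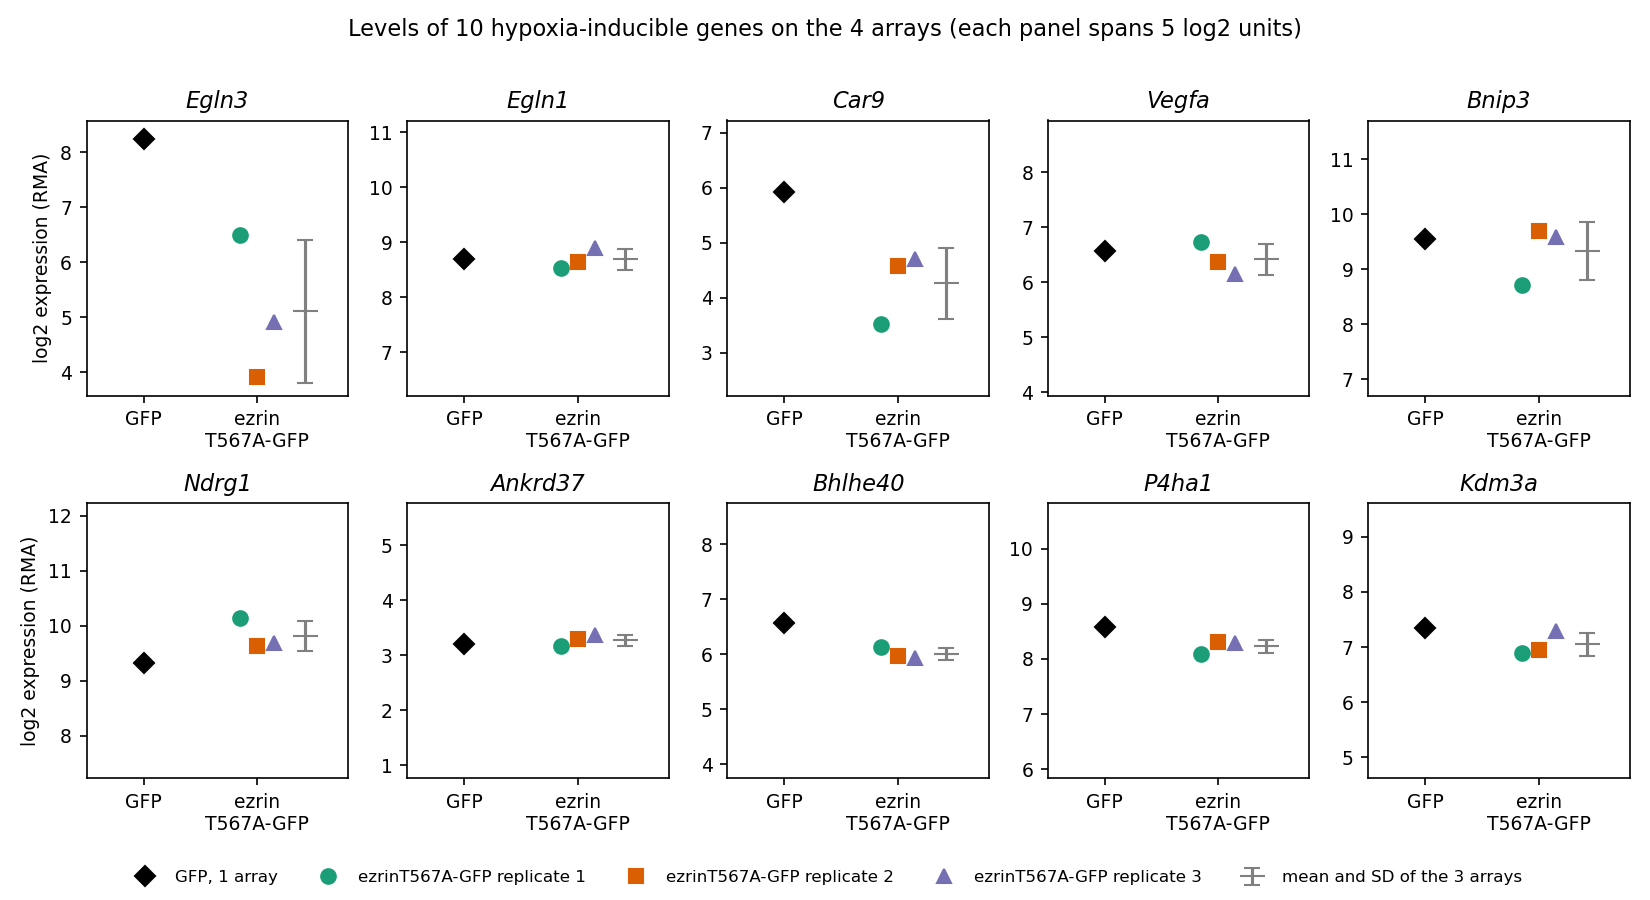
Log2 expression (RMA) of each of the 10 genes, by the probe set used for the gene, on the GFP array (diamond) and on ezrinT567A-GFP replicates 1 (circle), 2 (square) and 3 (triangle), with the mean and SD of the 3 arrays as a bar beside them; every panel spans 5 log2 units. The largest distance between the groups is in Egln3 (8.24 in GFP, 3.92 to 6.50 in ezrinT567A-GFP), followed by Car9, and in the other 8 panels the GFP point lies within 1 log2 unit of every ezrinT567A-GFP point.

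Egln3 encodes the prolyl hydroxylase PHD3, which is itself a strong HIF target. Its level was 8.24 in GFP, against 6.50, 3.92 and 4.92 in ezrinT567A-GFP replicates 1, 2 and 3. All 3 arrays were below GFP and the groups did not overlap, but the arrays of the same group lay up to 2.58 apart. The mean of 5.11 ± 1.30 (SD, n = 3) gave a difference of -3.12 (SE 1.04, 95% interval -5.95 to -0.30), which is 8.72-fold lower, with limma adjusted p = 0.330. This difference ranked 7 from the lowest among all genes, and only 7 genes had a larger SD over the 3 arrays.

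The other Egln3 probe set, designed from the same source sequence, gave the same order of arrays. It read 5.94 in GFP, against 4.01, 2.97 and 3.39 in replicates 1, 2 and 3, a difference of -2.49 (SE 0.43 in limma's fit over all probe sets, adjusted p = 0.300). Replicates 2 and 3 lie within 1 log2 unit of the lower quartile of each array, 2.55 to 2.62, and there signal and background cannot be told apart here, so the size of this difference and the order of those arrays on it are uncertain. On both probe sets replicate 1 was the nearest to GFP and replicate 2 the farthest. The hybridization spike-ins, control RNAs added before the arrays were hybridised, ran in the opposite order, at 9.32 in GFP, against 10.1, 11.1 and 10.4 in replicates 1, 2 and 3, and their part in the Egln3 values was not tested. Without replicate 1, 2 or 3 the Egln3 difference lay between -3.82 and -2.53.

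Egln1 encodes PHD2, the hydroxylase that sets HIF levels in most cells at normal oxygen. It read 8.70 in GFP, against 8.53, 8.64 and 8.90 in replicates 1, 2 and 3. The GFP value sat inside the range of the other arrays, and the difference was -0.01 (SE 0.18, 95% interval -0.49 to 0.48). A further Egln1 probe set gave -0.12 (SE 0.14), also with arrays on both sides of GFP. The third hydroxylase, Egln2, was chosen as a relative of the members and read 7.30 in GFP, against 7.26, 7.25 and 7.35 in the others, a difference of -0.01 (SE 0.12). Among Egln1, Egln2 and Egln3, only Egln3 had arrays that did not overlap between groups. With 1 GFP array this is common: 25.6% of all genes were below GFP in all 3 arrays and 32.5% above in all 3. Whether its difference departs from those of Egln1 and Egln2 was not tested.

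Car9 encodes a carbonic anhydrase on the cell surface that hydrates carbon dioxide outside the cell and so takes part in acid handling. It read 5.92 in GFP, against 3.52, 4.57 and 4.70 in replicates 1, 2 and 3. All 3 arrays were below GFP, replicate 1 the lowest, which is a different order from Egln3. The mean of 4.27 ± 0.64 (SD, n = 3) gave a difference of -1.65 (SE 0.52, 95% interval -3.07 to -0.23), which is 3.14-fold lower, with limma adjusted p = 0.314. The difference ranked 31 from the lowest among all genes, and 96 genes had a larger SD. Its 1 probe set has a mean level below the median of all genes, and the value in replicate 1 is within 1 log2 unit of the lower quartile of the arrays too, so the size of its difference is uncertain. Its relative Car12, another membrane carbonic anhydrase, was dim in both groups, at 3.25 in GFP, against 3.13 ± 0.25 (SD, n = 3).

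Markers of another cell type moved with the groups in the same direction as Egln3 and Car9. Of 6 epithelial markers (Krt5, Krt14, Krt17, Krt8, Cdh1 and Epcam), 6 were below GFP in all 3 ezrinT567A-GFP arrays, where 25.6% of all genes were. Their summed log2 level was 33.1 in GFP and 22.9 to 24.9 in ezrinT567A-GFP. The dimmest of them in GFP were Cdh1 at 4.21 and Krt8 at 4.24, and Krt17 came closest to the lower quartile of the arrays in ezrinT567A-GFP, at 2.85 on average. Their part in the values of Egln3 and Car9 was not tested, and in such bulk RNA fewer cells of a type and less RNA per cell cannot be told apart.

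Bhlhe40 encodes a helix-loop-helix repressor that is induced by HIF and also belongs to the circadian clock. It read 6.57 in GFP, against 6.13, 5.96 and 5.93 in replicates 1, 2 and 3. The 3 arrays lay close together and all below GFP. The mean of 6.01 ± 0.11 (SD, n = 3) gave a difference of -0.57 (SE 0.14, 95% interval -0.96 to -0.18), which is 1.48-fold lower, with limma adjusted p = 0.277, the lowest of the 10 genes. Its relative Bhlhe41 was 4.39 in GFP and 4.55 on average in ezrinT567A-GFP, a difference of 0.16 (SE 0.17).

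P4ha1 encodes a catalytic subunit of the enzyme that hydroxylates prolines of collagen, which lets the collagen triple helix hold at body temperature. It read 8.58 in GFP, against 8.09, 8.31 and 8.28 in replicates 1, 2 and 3. All 3 arrays were below GFP, with a difference of -0.35 (SE 0.14, 95% interval -0.73 to 0.03). The dimmer of its probe sets gave a larger difference, from 8.0 in GFP to 7.27 ± 0.10 (SD, n = 3), which is -0.73 (SE 0.14 in limma's fit over all probe sets, adjusted p = 0.300). Both probe sets kept the same side in every array. The paralogues P4ha2 (0.14, SE 0.15) and P4ha3 (-0.11, SE 0.12) lay nearer to GFP.

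Kdm3a encodes a histone lysine demethylase that uses oxygen and is induced by HIF. It read 7.34 in GFP, against 6.90, 6.95 and 7.30 in replicates 1, 2 and 3. All 3 arrays were below GFP, but replicate 3 by only 0.04, and the difference of -0.29 (SE 0.20) had a 95% interval that spanned 0 (-0.84 to 0.27).

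Vegfa encodes the growth factor that drives the formation of blood vessels. By the probe set used for the gene it read 6.56 in GFP, against 6.72, 6.36 and 6.15 in replicates 1, 2 and 3. Replicate 1 was above GFP and the other arrays below it, with a difference of -0.15 (SE 0.25, 95% interval -0.84 to 0.54). The other Vegfa probe set read 6.75 in GFP, against 6.54, 6.0 and 6.35 in replicates 1, 2 and 3, all below GFP, with a difference of -0.46 (SE 0.25). The probe sets therefore disagreed on replicate 1 and both intervals spanned 0.

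Among the relatives of Vegfa, the ligand Vegfb was 0.58 higher (SE 0.12, limma adjusted p = 0.240) and higher in all 3 arrays. Vegfd read 8.35 in GFP, against 8.51, 7.02 and 7.19 in replicates 1, 2 and 3, so that replicate 1 stood with GFP. The VEGF receptors Flt1 (4.0 in GFP), Kdr (4.02) and Flt4 (4.62) were below the median level of all genes, and their differences lay between -0.18 and 0.05. The co-receptors Nrp1 (-0.75, SE 0.31) and Nrp2 (-0.38, SE 0.31) were lower in all 3 arrays. None of these genes passed limma's test over all genes.

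Bnip3 encodes an outer mitochondrial membrane protein that tags mitochondria for autophagy. It read 9.55 in GFP, against 8.72, 9.69 and 9.59 in replicates 1, 2 and 3. Replicate 1 alone was below GFP, by 0.83, and the other arrays were slightly above it. The difference was -0.22 (SE 0.43, 95% interval -1.40 to 0.95), and without replicate 1 it was 0.08. Fam162a, a mitochondrial protein gene induced by HIF and singled out after its values were seen, had the same shape, at 10.8 in GFP, against 9.92, 10.8 and 10.9 in replicates 1, 2 and 3, although its other probe set gave 0.12 rather than -0.22.

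Ndrg1, a stress-induced gene of the NDRG family, went the other way. It read 9.33 in GFP, against 10.1, 9.64 and 9.68 in replicates 1, 2 and 3. All 3 arrays were above GFP, replicate 1 the highest, and the difference was 0.49 (SE 0.23, 95% interval -0.15 to 1.13, limma adjusted p = 0.447). Its 5 probe sets gave differences between 0.37 and 0.54, with all 3 arrays above GFP on each. The tightest of them read 8.99 in GFP, against 9.53 ± 0.12 (SD, n = 3), a difference of 0.54 (SE 0.14, adjusted p = 0.330 in limma's fit over all probe sets). The paralogues Ndrg4 (0.78, SE 0.26) and Ndrg3 (0.26, SE 0.13) were higher in all 3 arrays too, and Ndrg2, which was dim, was -0.23 (SE 0.13). None of the 4 NDRG genes passed the test over all genes.

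Ankrd37 encodes a small ankyrin-repeat protein known as a HIF target. It read 3.20 in GFP, against 3.17, 3.29 and 3.36 in replicates 1, 2 and 3, with a difference of 0.07 (SE 0.12, 95% interval -0.27 to 0.41). The groups overlapped, and this dim probe set lies less than 1 log2 unit above the lower quartile of the arrays.

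**Figure D2:**
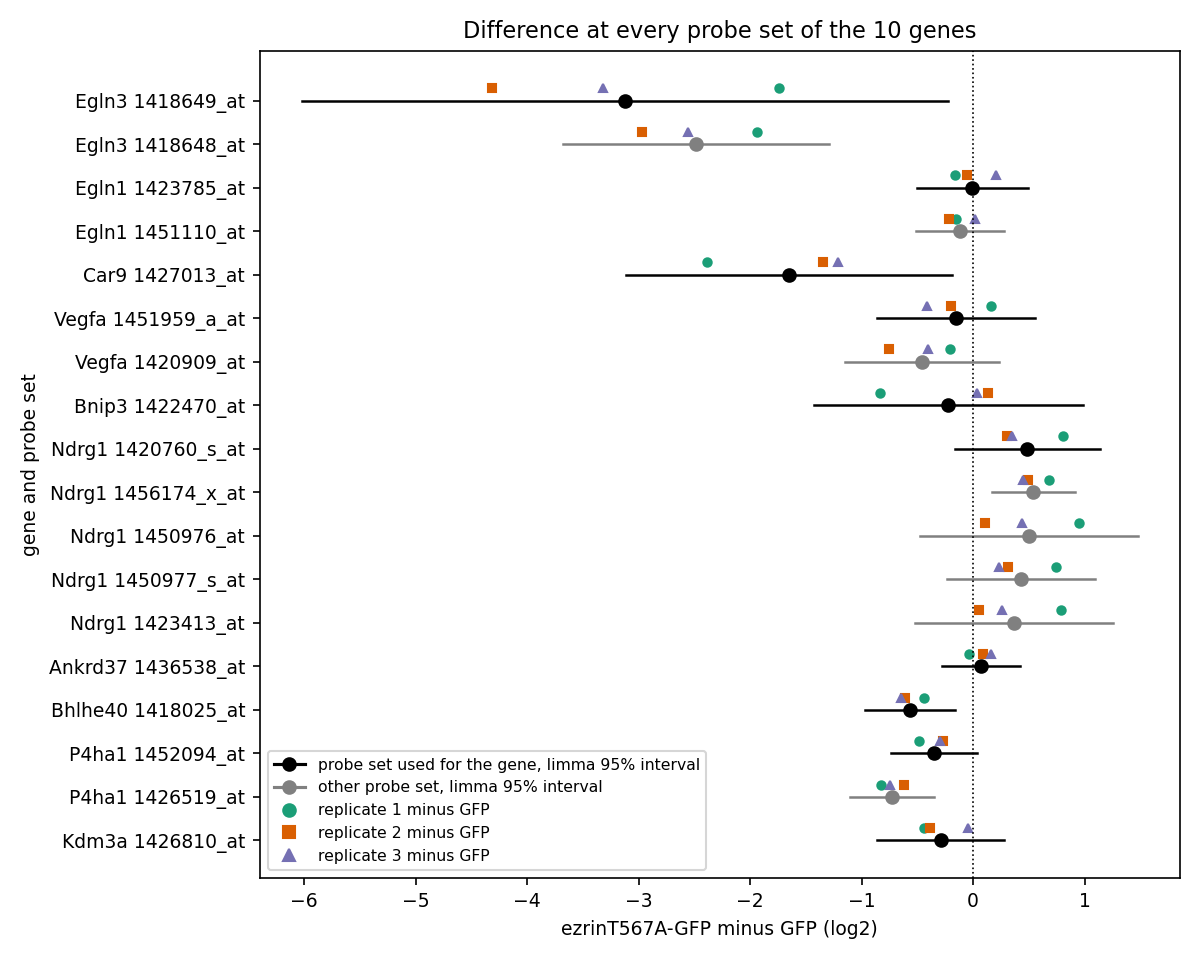
Difference between ezrinT567A-GFP and GFP (log2) at each of the 18 probe sets of the 10 genes, with limma's 95% interval from the fit over all probe sets (black for the probe set used for the gene, grey for the others) and each replicate minus GFP as a small coloured mark above the line. All 3 marks lie left of 0 at 8 probe sets and right of 0 at 5, all of these being Ndrg1, and 5 probe sets have marks on both sides.

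The genes also differed in how far the 3 ezrinT567A-GFP arrays lay apart. The median SD of the 10 genes was 0.25, against 0.13 over all genes, and Egln3, Car9, Bnip3 and Vegfa were above the 90th percentile of all genes. Bhlhe40, P4ha1 and Ankrd37 were below the 50th percentile. Replicate 1 was the lowest of the 3 arrays in 6 genes, replicate 2 in 2 and replicate 3 in 2. For Egln3 and Car9 the difference from GFP and the spread were both large, while Bhlhe40 had a smaller difference with a small spread.

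**Figure D3:**
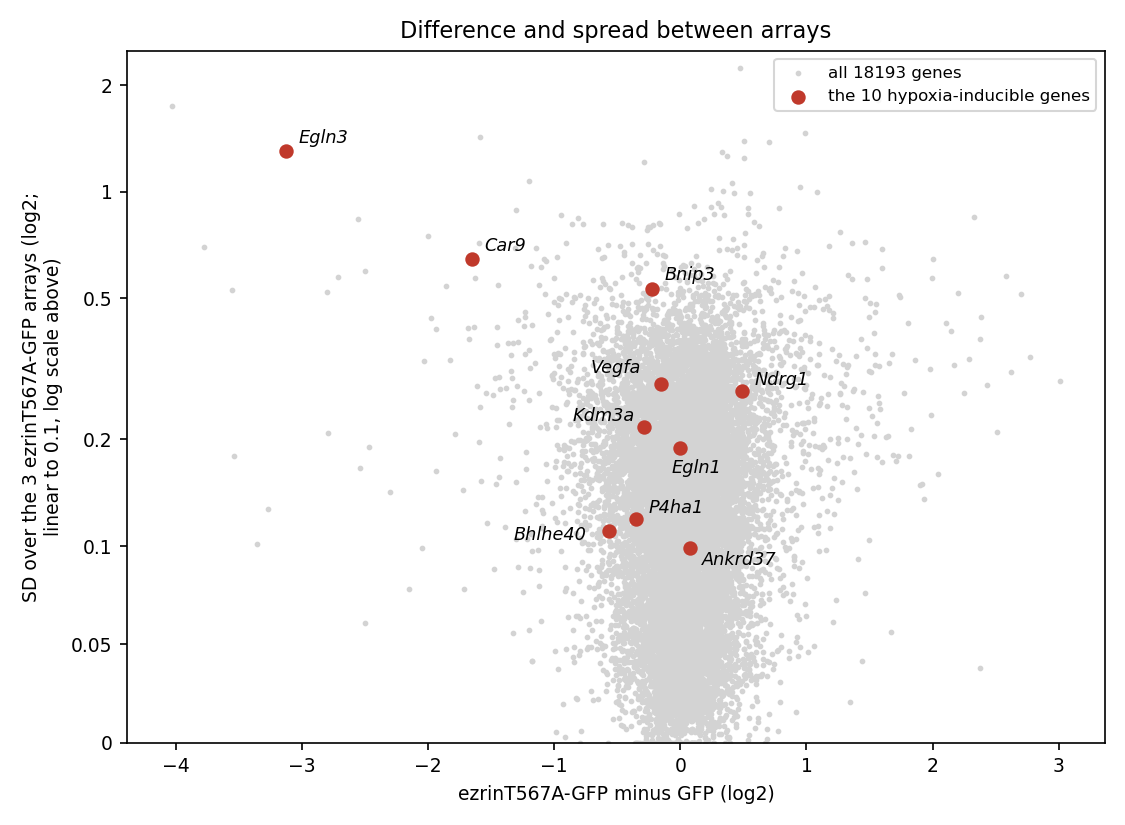
Difference between ezrinT567A-GFP and GFP (log2, horizontal axis) against the SD over the 3 ezrinT567A-GFP arrays (vertical axis, linear up to 0.1 and logarithmic above) for all 18193 genes in grey and the 10 hypoxia-inducible genes in red. Egln3 (-3.12, SD 1.30) and Car9 (-1.65, SD 0.64) lie far to the left and high, while Bhlhe40 (-0.57, SD 0.11) lies left of 0 with a small spread.

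The other genes of the pathway were read from 10 lists of 96 genes, 89 of them measured. None passed limma's adjusted threshold, 5 had an unadjusted p under 0.05 on the higher side (7.46% of all genes did) and 4 on the lower side (6.50%). They split into 45 higher and 44 lower, with a median of 0.0020 on the log2 scale, and by the probe set used for each gene 0 reached a 2-fold difference in either direction. Over all 224 probe sets of these genes, 4 were at least 2-fold lower, from the genes Ak4 and Pdk1, and 1, from Stc2, was at least 2-fold higher. Of the 10 members, 2 were at least 2-fold lower (0.704% of all genes were) and 0 at least 2-fold higher (0.973%), with the same limit from how the members were chosen.

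Among the HIF subunits and coactivators, 3 of 8 were higher and 5 lower (median -0.12). Hif1a, the alpha subunit, read 10.0 in GFP, against 10.4 ± 0.09 (SD, n = 3), a difference of 0.34 (SE 0.11, limma adjusted p = 0.320), with probe sets from -0.10 to 0.50. Its partner Arnt was 0.05 (SE 0.23), and the alpha subunit Epas1 was dim at 3.20 in GFP. The coactivator Crebbp was -0.50 (SE 0.13), with probe sets from -0.50 to 0.31, and Ep300 was -0.05 (SE 0.13). RNA levels of the alpha subunits do not show the amount of HIF protein, which is set mainly by degradation.

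The oxygen sensing and HIF degradation list had 5 of 10 genes higher and 5 lower (median 0.04). The asparagine hydroxylase Hif1an (0.08, SE 0.26) had arrays on both sides of GFP. The ubiquitin ligase subunit Vhl (-0.15, SE 0.12, probe sets -0.33 to -0.15) was lower in all 3 arrays. So were the elongins that hold it, Elob (-0.38, SE 0.08, probe sets -0.38 to -0.26) and Eloc (-0.20, SE 0.08, probe sets -0.83 to -0.20). The ubiquitin ligase gene Siah1a (0.46, SE 0.12, probe sets 0.10 to 0.46) was higher in all 3. None of the 10 passed by limma over all genes.

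By the probe set used for each gene, targets with the same roles as the members had smaller differences than Egln3 and Car9. Of 5 measured pH and transport targets 3 were higher and 2 lower (median 0.05), with the glucose transporter Slc2a1 at 0.05 (SE 0.15) and the lactate exporter Slc16a3 at 0.20 (SE 0.14). Of 11 secreted and signalling targets 8 were higher and 3 lower (median 0.09). There the glycoprotein hormone Stc2 was 0.75 (SE 0.34) and endothelin, Edn1, -0.53 (SE 0.21), while the peptide hormone Adm (3.66 in GFP) was dim and differed by -0.10.

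Mitochondrial and survival targets were higher in 3 of 9 genes and lower in 6 (median -0.19), among them the mitophagy receptor Fundc1 (-0.54, SE 0.17) and the pyruvate dehydrogenase kinase Pdk1 (-0.50, SE 0.19, probe sets -1.11 to 0.25). Collagen-modifying targets other than P4ha1 were higher in 5 of 6 (median 0.13), with the lysyl hydroxylases Plod1 at 0.13 (SE 0.11) and Plod2 at -0.02 (SE 0.12), and the oxidase Ero1a at 0.31 (SE 0.26). Chromatin and transcription targets were higher in 4 of 10 (median -0.02). In that list the demethylase Kdm4b was 0.37 (SE 0.16), against -0.29 for the member Kdm3a, and the MYC antagonist Mxi1 was -0.35 (SE 0.13). Glycolytic and glycogen targets were higher in 9 of 16 (median 0.06), with Hk1 at 0.41 (SE 0.10), Tpi1 at -0.31 (SE 0.13) and Ldha at -0.22 (SE 0.14). The adenylate kinase gene Ak4, singled out after its values were seen, was -0.05 (SE 0.14) by its brightest probe set, but its 5 probe sets ran from -2.11 to 0.20. The probe set at -2.11 read 5.22 in GFP, against 3.13, 3.05 and 3.13 in replicates 1, 2 and 3, so all 3 arrays lay below GFP and near background. Values in these lists did not pass the test over all genes.

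**Figure D4:**
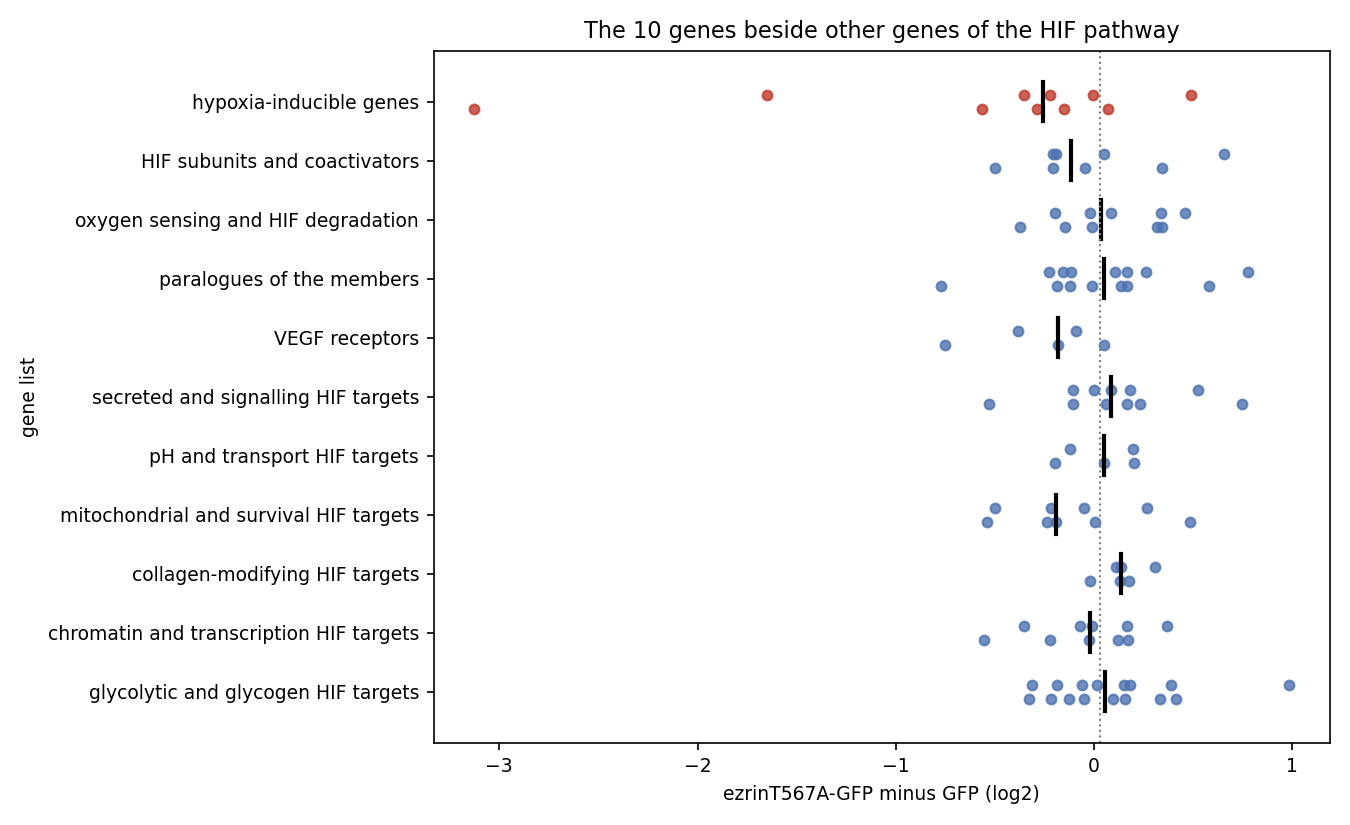
Difference between ezrinT567A-GFP and GFP (log2) for each measured gene of the 10 hypoxia-inducible genes (red) and of 10 lists of other HIF pathway genes (blue), with the median of each list as a black bar and the median of all genes as a dotted line. Egln3 (-3.12) and Car9 (-1.65) lie to the left of every gene of the other lists by the probe set used for each, whose differences run from -0.77 to 0.98.

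Markers of the bone lineage were uneven. Of 9 osteoblast-lineage genes listed 6 were measured, without Runx2, Spp1 and Bglap. Col1a1 (11.3 in GFP), Col1a2 (12.3) and Sparc (11.3) were bright, Sp7 read 5.05, and Alpl (3.63) and Ibsp (2.78) were dim. The summed level of the measured genes was 46.4 in GFP and 46.2 to 46.9 in ezrinT567A-GFP. The 5 endothelial markers were below the median level of all genes in both groups. Of the 5 macrophage markers only Csf1r (11.9) was above that level, with Ptprc at 2.22. The probe sets of Ezr differed by 0.01 (SE 0.12) and 0.33 (SE 0.18), values that check the labels only if the probes match the construct, which is not given. Array medians lay between 3.85 and 3.89, and the 18S rRNA controls at 9.09 in GFP, against 7.65, 11.3 and 7.76 in replicates 1, 2 and 3.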

How the data were processed

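Total RNA of 4 samples was hybridised to one-colour Affymetrix arrays of 45101 probe sets. The deposited log2 values give 1 expression level for each probe set, which the authors made with RMA (named in the submitters' processing notes), and its software is not given in the sources used here. Since RMA equalises the distributions of the arrays, a shift of all genes together is not visible. Groups came from the sample titles. Names came from the platform's annotation table, and 932 probe sets with several symbols, 9211 not listed and 64 controls were left out. These counts overlap in part. Where a gene had several probe sets, the one with the highest mean over the 4 arrays stood for it, and no filter on dim genes was used. Differences are ezrinT567A-GFP mean minus GFP, from limma 3.58.1 under R 4.3.3 (lmFit, eBayes with a mean trend, 2 residual and 2.23 prior degrees of freedom), two-sided, adjusted after Benjamini and Hochberg over all genes at 0.05. SE is the moderated standard error. The members and the 10 lists were chosen with earlier results of these data known. Named were the members, their relatives, HIF subunits and oxygen sensors, markers, and up to 4 genes per list with the smallest p; others of the lists, such as Slc2a1, Adm, Plod2, Ldha, Ak4 and Fam162a, were chosen after their values were seen. In 20 simulations over 18193 genes, 200 were changed. Limma found 65.2% of those changed 4-fold and 12.6% of those changed 2-fold, with 1.75 false calls on average. The simulated arrays were independent and normally distributed, and each gene took the SD of a gene picked at random. The shares therefore do not give the chance of finding genes as variable as Egln3 and Car9. Alternatives were quantile normalization, median centring, averaging the probe sets of a gene, _at probe sets alone, no dim genes, other eBayes priors and leaving out each replicate. Promoters came from a RefSeq table of GRCm38.p6. The number of arrays limits the precision.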

Additional observations from a re-analysis of the deposited data

How the results depend on the processing

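No paired analysis was possible because the GFP group holds 1 array. Under the alternatives that kept all 4 arrays, each of the 10 genes that could be fitted kept its direction and had an adjusted p above 0.05, the lowest being 0.159 for Bhlhe40; Car9 and Ankrd37 gave no value without the dim genes. Leaving out 1 replicate also called none of them, and turned the sign for Egln1 (-0.11 to 0.074) and Bnip3 (-0.40 to 0.085). The number of genes above GFP in all arrays left ranged from 1 to 3, the 3 being reached without replicate 1, and the number below from 5 to 6. Over all genes the count past the threshold was 34 after quantile normalization, 30 after median centring, 6 with the mean of probe sets, 3 without dim genes and 9 with a robust prior, and 0 with _at probe sets alone, without a mean trend or without any 1 replicate. The cause was not tested. With _at probe sets alone the median of the members' paralogues was -0.12 and that of secreted targets 0.18. With the mean of probe sets the median was -0.087 for VEGF receptors and -0.050 for mitochondrial targets. Without dim genes it was -0.57 for VEGF receptors, where 2 genes were left, and -0.024 for glycolytic targets. Leaving out a replicate gave medians of 0.081 to 0.15 for secreted, -0.25 to -0.055 for mitochondrial and 0.018 to 0.055 for glycolytic targets. Other list medians near 0 turned sign or moved by over 1.5 times: without 1 replicate they were -0.037 to 0.086 for pH and transport, -0.0022 to 0.088 for oxygen sensing, -0.066 to 0.042 for chromatin targets and -0.15 to -0.013 for HIF subunits, and with the mean of probe sets the HIF subunits gave 0.0091. The median of all genes was 0.014 after median centring. Values near the lower quartile of the arrays, as for Ankrd37, are limited by background.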
